A study of Oryzias melastigma with 6 samples.

Results

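miR-202 is described here through its 2 arms, miR-202-5p and miR-202-3p, in small RNA libraries from marine medaka (Oryzias melastigma), a small saltwater fish. A microRNA (miRNA) is cut from a hairpin precursor, and either strand of the stem, the 5p or the 3p arm, can be loaded into an Argonaute protein and guide it to messenger RNAs, mainly through the seed, bases 2 to 8 of the arm. The cut ends vary, so that an arm is a set of exact forms (isomiRs), and a form with a shifted 5′ end carries another seed. miR-202 is known for its expression in the gonads. In the mouse it is expressed in Sertoli cells, the supporting cells of the testis, in zebrafish it is found in the germ plasm, and in the Japanese medaka its loss lowers the fecundity of females.

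The series holds 6 libraries of pooled tissue from sexually mature fish, 1 for each gonad (ovary or testis) and 1 for the brain and the liver of each sex. No treatment or genotype is given in the labels, and no group has a replicate, so differences between libraries are described with counting intervals and without a test over fish. Each library is a list of exact sequences of 20 to 23 nt with a value taken to be RPM, reads scaled to the library total, and each list stops at a minimum. Each list is taken to be complete down to its minimum, which no source used here states, and every limit for an unlisted form rests on this. Sequences were taken as members when they aligned to an arm with a 5′ shift of at most 3 nt, at most 2 mismatches and an overlap of at least 17 nt. Only sequences that reached the minimum of a list could be members. The rule itself compared sequences and not levels, with the longest listed form as the frame of each arm. It found 15 sequences among the 1571 distinct sequences of the series, 10 of miR-202-5p and 5 of miR-202-3p. All 15 were listed in ovary and 10 of them in testis, so the rest entered through ovary alone. Members were well inside the rule, with shifts up to 2 nt, at most 1 mismatch and overlaps of 18 nt or more. A wider rule (shift 5 nt, 4 mismatches, overlap 15 nt) added 0 sequences. The frames were themselves listed sequences, so these figures do not test the match to conserved miR-202 past its first 9 bases.

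The forms that held at least 5% of an arm in a gonad are shown first. Their 5′ ends set the seed of each arm, and the 3′ ends of the 5p forms differed in share between ovary and testis. These forms are written 5′ to 3′ as DNA from the deposited lists, with bases 2 to 8 in capitals. Names give the arm and the length, and position 1 is the first base of the 23-nt form of the 5p arm and of the late-start form of the 3p arm.
5p 21-nt form: tTCCTATGcatatacttcttt
5p 23-nt form: tTCCTATGcatatacttctttga
5p 22-nt form: tTCCTATGcatatacttctttg
5p early-start 22-nt form: tTTCCTATgcatatacttcttt
3p 21-nt form: aAAGAGGCataaggcatggga
3p 22-nt form: aAAGAGGCataaggcatgggaa
3p 20-nt form: aAAGAGGCataaggcatggg
3p late-start 22-nt form: aGAGGCATaaggcatgggaaaa

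The 5p forms share one core and differ mainly at the 3′ end. The main 3p forms begin 2 nt upstream of the late-start form, which moves the seed from GAGGCAT to AAGAGGC. Folded together with RNAcofold, the 5p 23-nt form and the 3p 21-nt form gave 18 base pairs, all of them between the arms, at -19.5 kcal/mol. In that model the 5p arm had a 3′ overhang of 2 nt at one end, the kind that Dicer typically leaves. At the other end the 3p arm had no 3′ overhang, and 1 base at the 5′ end of the 5p arm was unpaired. The 3′ end of the 5p 21-nt form was flush with the same 3p form, with the other end unchanged, and with the late-start 3p form it had an overhang of 2 nt at both ends, with 17 base pairs at -18.6 kcal/mol. No genome was used here, so neither the locus nor the hairpin of miR-202 is placed.

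In ovary and testis miR-202-5p was among the leading miRNAs, while neither arm was listed in brain or liver. In ovary the 10 listed 5p forms summed to 2279.98 RPM (52189 reads; 95% exact binomial interval 2260.5 to 2299.6 RPM). In testis 8 forms summed to 1256 RPM (32075 reads; 1242 to 1269.9 RPM). By summed level miR-202-5p ranked 2 of the 54 family arms listed in ovary and 2 of the 45 listed in testis, behind let-7-5p in both. In testis that rank was a near tie, with miR-143-3p at 1249 RPM, inside the counting interval of miR-202-5p. miR-202-5p held 9.79% of the RPM assigned to miRNAs in ovary and 8.30% in testis. Its most abundant form ranked 5 of the 380 sequences listed in ovary and 6 of the 321 listed in testis.

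The other arm was far less abundant. Summed over 5 forms, miR-202-3p reached 245 RPM in ovary (5605 reads; 238 to 251 RPM), and over 2 forms it reached 53.8 RPM in testis (1373 reads; 51.0 to 56.7 RPM). Those levels ranked 15 of 54 in ovary and 29 of 45 in testis, or 1.05% and 0.355% of miRNA RPM.

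**Figure D1:**
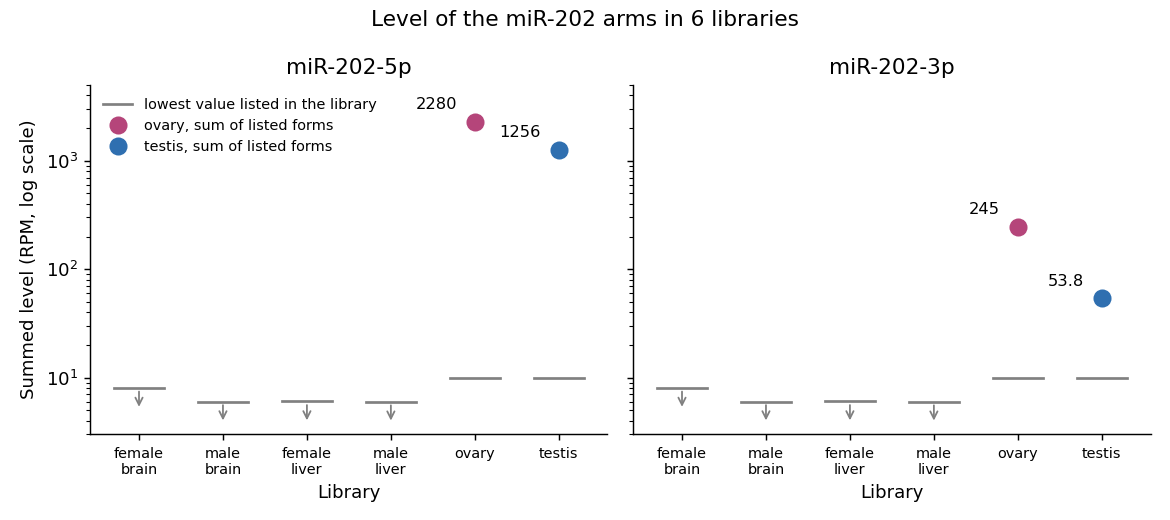
Summed level of miR-202-5p (left) and miR-202-3p (right) in each library, in RPM on a log scale; grey lines mark the lowest value that each library lists, arrows mean that no form was listed, and each point is 1 library. Ovary (2279.98 and 245 RPM) lies above testis (1256 and 53.8 RPM) for both arms, and no form of either arm is listed in brain or liver, where the minimum limits each form and not the sum.

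Brain and liver can be given only as limits. Of the 3049 entries of the 4 brain and liver lists, 0 were miR-202. The lowest value listed was 8.03 RPM in female brain, 6.03 RPM in male brain, 6.03 RPM in female liver and 6.002 RPM in male liver. If the lists are complete down to these values, each form lay under that level there, and a level below it cannot be read. The top 5p form in ovary, at 779 RPM, was therefore at least 97.0-fold above both brain libraries and at least 129-fold above both liver libraries. For the top 5p form in testis, at 546 RPM, the lower bounds were 67.9-fold over brain and 90.4-fold over liver. For miR-202-3p the bounds were 18.6-fold over brain and 24.8-fold over liver in ovary, and 4.66-fold and 6.21-fold in testis. If every form known from the gonads sat just under the minimum elsewhere, the summed arm would still be at least 15.6-fold above brain for miR-202-5p in testis, but only at least 1.34-fold for miR-202-3p in testis. With an unlisted arm set to a single minimum of 10.03 RPM, rather than 1 minimum for each form, both arms were among the 4 of 71 family arms (5.63%) counted as at least 4-fold higher in each gonad than in every brain and liver library. For miR-202-3p in testis that count rests on this choice, since its summed level is bounded only at 1.34-fold over brain and 1.78-fold over liver. The other two were miR-145-5p, a smooth muscle miRNA, and miR-196-5p, which lies in the Hox clusters.

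Ovary held more of both arms per sequenced read than testis, and the excess was wider for the 3p arm. The ovary-to-testis ratio was 1.82 for miR-202-5p (95% counting interval 1.79 to 1.84) and 4.55 for miR-202-3p (4.29 to 4.83). These intervals cover the counting of reads in 2 libraries and not the spread between fish. Most family arms were higher in ovary on this scale: of 39 arms with at least 50 RPM in the higher gonad 30 were higher in ovary, with a median ratio of 1.53. Beside that median miR-202-5p stood 17 of 39 and miR-202-3p 7 of 39. At least 2-fold higher in ovary were 16 of the 39 arms (41%), miR-202-3p among them and miR-202-5p not, and at least 4-fold higher were 8 (20.5%), again with miR-202-3p. The ratio of miR-202-3p sets 5 listed forms in ovary against 2 in testis, where unlisted forms add nothing to the sum. Over the forms listed in both gonads it was 3.71 (3.49 to 3.95), under 4-fold. As a share of miRNA RPM the ratios were 1.18 for miR-202-5p and 2.96 for miR-202-3p, so that both stayed above 1 while miR-202-3p no longer reached 4-fold. On that scale every ovary-to-testis ratio is divided by 1.54, and 19 of the 39 arms were higher in ovary and 20 in testis. With a pseudocount of 10 RPM miR-202-3p was under 4-fold higher in ovary than in testis, and it was no longer counted as 4-fold above brain and liver in both gonads, whereas miR-202-5p was.

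**Figure D2:**
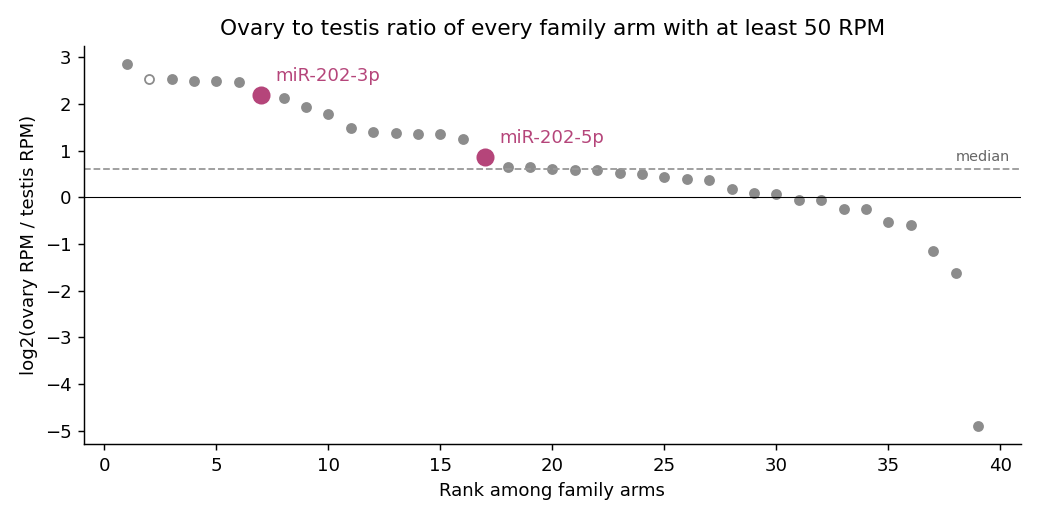
Log2 ratio of ovary RPM to testis RPM for the 39 family arms with at least 50 RPM in the higher gonad, by rank; each point is 1 arm, the open point is an arm unlisted in testis and set to the common minimum there, and the dashed line is the median. miR-202-3p (log2 ratio 2.19) stands at rank 7 and miR-202-5p (0.86) at rank 17, near the median of 0.62. Forms of miR-202 unlisted in testis add nothing to the testis sum of their arm.

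Markers of other cell types also differed between the gonads. The red cell miRNA miR-451-5p was 100.1 RPM in ovary and 13.9 RPM in testis, and miR-144-3p was 44.6 RPM in ovary and unlisted in testis. The red cell pair summed to 145 RPM against 13.9 RPM. Of the leukocyte pair, miR-142-3p was 61.2 RPM and 45.4 RPM, and miR-223-3p was 57.9 RPM in ovary and unlisted in testis. The hepatic miR-194-5p was 117 RPM and 26.9 RPM, while miR-122-5p and the remaining liver marker were unlisted in both gonads. The smooth muscle pair miR-143-3p and miR-145-5p summed to 1568 RPM in ovary and 1798 RPM in testis. Of the 3 neuronal markers, miR-124-3p, miR-9-5p and miR-9-3p, 0 were listed in either gonad. Of the striated muscle pair, miR-1-3p was 113 RPM in ovary and 79.1 RPM in testis, and miR-133-3p was unlisted in both. Of 2 epithelial arms of the miR-200 group 1 was 61.6 RPM and 23.8 RPM, and the other was unlisted in both. The part of these cells in the level of miR-202 was not tested, and in pooled tissue fewer cells of a type and less RNA per cell cannot be told apart.

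The balance of the arms differed between the gonads, with a larger excess of 5p in testis. The 5p-to-3p ratio was 9.31 in ovary (9.06 to 9.57) and 23.4 in testis (22.1 to 24.7), so the testis ratio was 2.51 times the ovary ratio (exact conditional interval 2.36 to 2.67). In testis 3 of the 5 3p forms seen in ovary lay under the minimum and drop out of the sum. Counted over the forms that both gonads listed, the ratios were 11.3 and 23.4, a 2.06-fold difference. With each form of either arm unlisted in testis set to its highest possible level, the testis minimum of 10.03 RPM, the testis ratio fell to 15.2 and the difference to 1.63-fold (1.55 to 1.72). This raised the testis sums to 1276 RPM for 5p and 83.8 RPM for 3p, so 15.2 is not the lowest ratio possible. The top forms of each arm alone gave 5.20 and 14.6. The direction was the same under each of these choices, and the interval again compares 2 libraries.

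**Figure D3:**
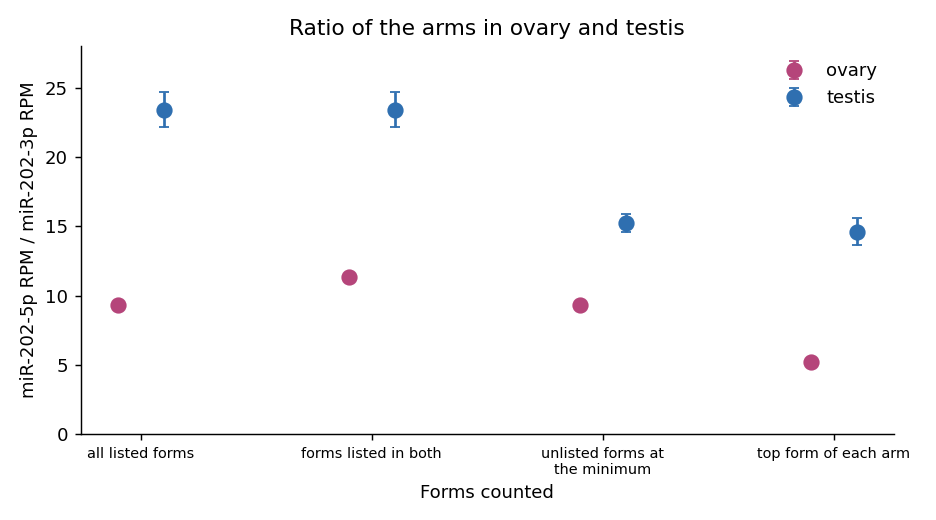
Ratio of miR-202-5p RPM to miR-202-3p RPM in ovary and testis under 4 choices of the forms counted; points are single libraries and bars are 95% exact counting intervals, some smaller than the point. The testis point lies above the ovary point in each choice, from 15.2 against 9.31 to 23.4 against 9.31 for sums over forms.

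Only 4 hairpins had both arms listed in both gonads, so other hairpins give little to read this against. For miR-199, a mesenchymal miRNA led by its 3p arm, the 5p-to-3p ratio was 0.0475 in ovary and 0.0749 in testis. For the endothelial miR-126, also led by its 3p arm, it was 0.140 and 0.159. For miR-30 it moved the other way, from 7.68 in ovary to 1.35 in testis, with the 3p arm at 10.4 RPM and 10.6 RPM, just above the minima. The 5p arms of miR-199 (10.7 and 13.0 RPM) and miR-126 (13.1 and 11.3 RPM) were also near the minima in ovary and testis. The testis ratio was 1.58 times the ovary ratio for miR-199 (1.33 to 1.88). For miR-126 it was 1.13 times (0.948 to 1.35), an interval that included equal ratios. For miR-30 it was 0.176 times (0.142 to 0.218), a wider shift than that of miR-202 and in the other direction. Any paralogues within these family arms were pooled and not told apart.

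The exact forms of miR-202-5p differed between ovary and testis at the 3′ end and little at the 5′ end. The 5p 21-nt form stood at 737 RPM in ovary and 546 RPM in testis, and led the arm in testis. The 5p 23-nt form stood at 779 RPM in ovary and 317 RPM in testis, and led the arm in ovary. As shares of the arm, the 21-nt form held 32.3% in ovary (31.9 to 32.7) and 43.4% in testis (42.9 to 44.0). By contrast, 34.2% of the arm in ovary (33.8 to 34.6) and 25.2% of it in testis (24.8 to 25.7) was the 23-nt form. The early-start 22-nt form stood at 261 RPM and 159 RPM, or 11.4% and 12.7%, and the 22-nt form at 253 RPM and 119 RPM, or 11.1% and 9.47%. The other forms listed in both gonads each held under 5% of the arm.

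**Figure D4:**
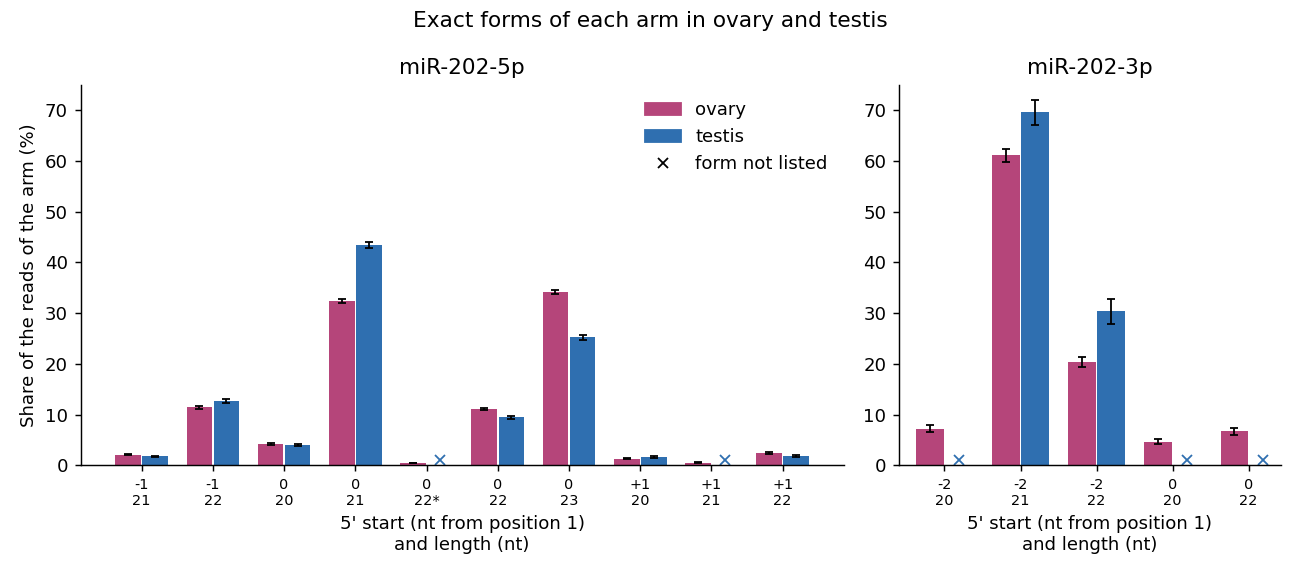
Share of the reads of each arm held by each exact form in ovary and testis, by the 5′ start and the length in nt, with 95% exact binomial intervals; crosses mark forms that a library does not list, and the asterisk marks the form with a substitution. For miR-202-5p the 21-nt form at start 0 holds 32.3% in ovary and 43.4% in testis, and the 23-nt form 34.2% and 25.2%.

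Grouped by their 5′ start, the forms gave nearly equal shares in both gonads. Forms starting at position 1, with the seed TCCTATG, held 82.3% of miR-202-5p in ovary (82.0 to 82.7) and 82.1% in testis (81.7 to 82.5). Forms starting 1 nt earlier, with the seed TTCCTAT, held 13.5% (13.2 to 13.8) and 14.4% (14.02 to 14.8). Those starting 1 nt later, with the seed CCTATGC, held 4.17% (3.9996 to 4.34) and 3.49% (3.29 to 3.70). The differences in the shares of the early and the late start were each under 1 percentage point, although their intervals did not overlap. No other sequence of the series carried any of these seeds at bases 2 to 8.

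Grouped by their 3′ end, the same forms parted. Of 5p reads 45.0% ended at position 21 in ovary (44.6 to 45.4) and 57.7% in testis (57.2 to 58.3). At position 23, ovary had 36.6% of its 5p reads end (36.2 to 37.0), against 27.1% for testis (26.6 to 27.6). These shares leave out any early-start form ending at position 23, which would be too long for the lists. The 3 forms ending at position 21 had ovary-to-testis ratios of 1.35 to 1.64, below the 1.82 of the whole arm, and the 2 forms ending at position 23 had ratios of 2.38 and 2.46. The form ending at position 22 had a ratio of 2.13, and the 2 forms ending at position 20 had 1.94 and 2.16. The ratio was thus higher at position 23 than at position 21 in forms of different 5′ start, which was noticed after the values had been seen. It did not rise steadily along the 3′ end, since forms ending at position 20 lay above those ending at position 21. Among forms that start at position 1, the ratio of the 23-nt to the 21-nt form was 1.06 in ovary (1.03 to 1.08) and 0.581 in testis (0.565 to 0.597), a 1.82-fold difference (1.76 to 1.88). Ratios of forms within a library do not depend on how the libraries were scaled.

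**Figure D5:**
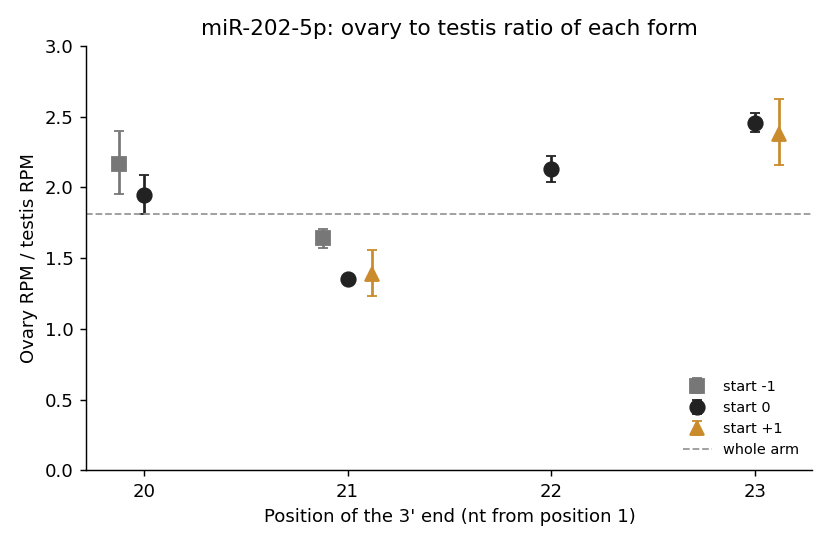
Ratio of ovary RPM to testis RPM for the 8 forms of miR-202-5p listed in both gonads, by the position of the 3′ end; symbols give the 5′ start in nt from position 1, bars are 95% exact counting intervals, and the dashed line is the whole arm (1.82). Forms ending at position 21 lie between 1.35 and 1.64, and those ending at position 23 at 2.38 and 2.46.

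In length this made miR-202-5p longer in ovary. Its mean length was 21.9 nt in ovary (SD over reads 0.947) and 21.7 nt in testis (SD 0.912), and over the forms listed in both gonads the ovary mean exceeded the testis mean by 0.198 nt. Measured the same way in the 23 family arms with at least 50 RPM in both gonads and shared forms of at least 2 lengths, the difference had a median of 0.0229 nt and a range from -0.169 to 0.198 nt, with 15 arms longer in ovary and 8 longer in testis. The value of miR-202-5p was the highest of the 23, followed by miR-23-3p with 0.193 nt. For miR-202-3p the difference had the other sign, -0.0539 nt, over 2 shared forms. The lists end at 23 nt, so an early-start form that reached position 23 would be too long to appear in either.

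The 2 forms of the 5p arm that only ovary listed were close to the minimum. A 21-nt form with the late start and its 3′ end at position 22 stood at 11.2 RPM. A 22-nt form with the substitution G22A, counted from position 1 of the 23-nt form, stood at 10.7 RPM. Its first 21 bases are those of the 21-nt form, and without a genome a templated last base and an added one cannot be told apart. The minimum was 10.004 RPM in ovary and 10.03 RPM in testis, so in testis each form lay under 10.03 RPM. At the ovary-to-testis ratio of the whole arm, 1.82, both would lie under the testis minimum. Whether testis differs from ovary in these forms beyond that ratio cannot be read from a list that stops at this minimum. No sequence differing from the top 5p form by 1 substitution at the same length was listed in either gonad. Such a sequence would have been listed from 1.28% of the top form in ovary and from 1.84% in testis.

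Within miR-202-3p the early start dominated. In ovary the 3p 21-nt form stood at 149.7 RPM, or 61.1% of the arm (59.9 to 62.4), and in testis at 37.4 RPM, or 69.6% (67.1 to 72.1). These shares have unlike bases, 5 listed forms in ovary and 2 in testis, so they cannot be compared directly. The 3p 22-nt form stood at 49.8 RPM in ovary and 16.3 RPM in testis. Their ovary-to-testis ratios were 3.999 (3.72 to 4.30) and 3.05 (2.73 to 3.42), so that even within the listed 3p forms the ratio was above that of every 5p form. Over these 2 shared forms alone, the 21-nt form thus held the larger share in ovary. The 3p 20-nt form, at 17.5 RPM, the late-start 22-nt form, at 16.4 RPM, and a late-start 20-nt form, at 11.4 RPM, were listed in ovary alone. A testis value at the ovary-to-testis ratio of the other forms would lie under the testis minimum for each of these. Whether testis differs from ovary in these forms therefore cannot be read, because the list stops at that minimum.

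Forms with the seed AAGAGGC summed to 217 RPM, 88.7% of the 3p arm in ovary (87.8 to 89.5), and those with the seed GAGGCAT to 27.8 RPM, 11.3% (10.5 to 12.2). In testis AAGAGGC was the seed of both listed 3p forms. The seed GAGGCAT matched the let-7 seed GAGGTAG at 5 of 7 bases, and AAGAGGC, compared position by position, at 2 of 7. let-7-5p, the family known for developmental timing, stood at 6870.4 RPM in ovary and 4385 RPM in testis, far above the 27.8 RPM of the late-start 3p forms.

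Over the 6 libraries the family arms whose levels went most closely with miR-202-5p were miR-214-3p (Pearson r = 0.994 on log2 RPM), miR-196-5p (0.980), miR-202-3p (0.955), miR-145-5p (0.905) and miR-143-3p (0.810), out of 70 compared. For miR-202-3p they were miR-214-3p (0.981), miR-202-5p (0.955), miR-196-5p (0.878), miR-145-5p (0.843) and the myeloid miR-223-3p (0.838). In both cases 4 of the 6 points lie at the listing minimum, so these values describe little more than a contrast of gonads with brain and liver. Far lower than miR-202-5p was miR-214-3p, a mesenchymal miRNA, at 51.6 RPM in ovary and 34.2 RPM in testis. So was miR-196-5p, at 62.5 RPM and 94.5 RPM. miR-145-5p was 524 RPM and 548 RPM, with 49.9 to 76.4 RPM in brain. miR-143-3p was 1044 RPM and 1249 RPM, with 300.4 and 336 RPM in brain. In testis miR-143-3p nearly tied with miR-202-5p, at 1256 RPM. Unlike both arms of miR-202, miR-196-5p, miR-145-5p and miR-143-3p were each higher in testis than in ovary in these libraries.

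Other miRNAs linked to gonads and the germline were each less abundant than miR-202-5p in both gonads. Of a list of 14 family arms 10 were listed in at least 1 gonad, of which 7 were higher in ovary, 4 of them at least 2-fold, and 3 were higher in testis, 0 of them by 2-fold. Of the 39 arms with at least 50 RPM in the higher gonad, 30 were higher in ovary. At least 2-fold higher in ovary were 16 of the 39 (41%), and in testis 3 (7.69%). The median ovary-to-testis ratio was 1.499 for the 10 and 1.53 for the 39. The 10 were not held to that minimum, and miR-18-5p and miR-19-3p lay under it, so the medians rest on unlike sets. As a share of miRNA RPM, miR-92-3p and miR-214-3p of the 7 would be higher in testis, and miR-18-5p, at 12.2 RPM in ovary and unlisted in testis, could not be placed. The widest ratio was that of miR-25-3p, a member of the miR-92 seed group, with 158 RPM in ovary and 28.2 RPM in testis. Next came the proliferation-linked miR-17/20/93-5p with 842 RPM and 244 RPM. miR-181-5p stood at 343 RPM and 131 RPM, and miR-21-5p at 1902 RPM and 801 RPM. miR-19-3p, of the same cluster as miR-17, went the other way, with 13.6 RPM in ovary and 23.7 RPM in testis. miR-430-3p, which clears maternal transcripts in fish embryos, and miR-34b/c-5p, linked to spermatogenesis in mammals, were unlisted in all 6 libraries. miR-184-3p and the arm of miR-34 other than b and c were listed in brain and in neither gonad. The list is not particular to gonads. Its summed level was 19802 RPM in female brain and 18623 RPM in male brain. In ovary it was 3976 RPM and in testis 1950 RPM, beside 2129 RPM in female liver and 1967 RPM in male liver. Higher in both gonads than in every brain and liver library were miR-196-5p, miR-214-3p and miR-145-5p.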

How the data were processed

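Small RNA from pooled tissue was sequenced in 6 libraries. Per the labels' protocols, short RNA was cut from a gel, joined to adapters and reverse transcribed, and PCR followed. CASAVA 1.7.0 was used, per the submitters' processing notes. Trimming, filters, aligner and build: not given in the sources used here. The values deposited by the authors were taken as RPM, since each lay within 0.002 of a whole number of reads at one total per library, 18660890 to 25534736 reads. These totals served for counting intervals (Clopper-Pearson, and exact conditional for ratios), which ignore PCR duplicates and cover counting error only. Listed sequences assigned to miRNAs held 2.33% of reads in ovary and 1.51% in testis, and all listed sequences 2.95% and 2.08%. In female and male brain the assigned share was 22.5% and 20.5%, and in female and male liver 1.80% and 1.96%. Reads outside the lists are not counted in these shares.

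Sequences opening with the first 9 bases of a conserved miRNA (108 starts, 96 family arms) served as references, and other sequences were aligned to them, with ties left out (0). Of 1571 sequences 987 went to 85 arms, with 2 of the starts added once unassigned sequences were known. The starts for miR-202 were TTCCTATGC and AGAGGCATA. For folds across arms, values under the common minimum of 10.03 RPM were raised to it, and arms needed 50 RPM in the higher library. Likeness is Pearson's r on log2(RPM + 1). The scripts were tested on simulated data.

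The members and lists were chosen with earlier results of these data known. Named were both arms, forms holding 5% of an arm, the 5 arms most alike, hairpins with both arms listed, let-7-5p and the lists. With 1 library per group no test over samples was run. Python 3.11.15, SciPy 1.17.1, NumPy 2.4.6, matplotlib 3.10.9 and RNAcofold 2.7.2 were used.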

Additional observations from a re-analysis of the deposited data

How the results depend on the processing

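The 5p-to-3p ratio stayed higher in testis, and both arms higher in ovary, under each alternative that gave both values. No paired analysis was possible because each group has 1 library. Counting forms with the exact 5′ end moved the ovary 5p-to-3p ratio to 67.6 and gave no testis value, since no such 3p form was listed there. With top forms only the ratios were 5.20 and 14.6 (2.80-fold apart). With forms listed in both gonads the ovary ratio was 11.3 (2.06-fold), and with unlisted forms at the minimum the testis ratio was 15.2 (1.63-fold). The ovary-to-testis ratio of miR-202-5p was 1.18 as a share of miRNA RPM, 1.28 as a share of listed RPM and 1.498 with median-of-ratios scaling. That of miR-202-3p was 2.96, 3.21 and 3.76 on these scales, all under 4-fold, and 3.71 over forms listed in both gonads. Over those forms the mean length of miR-202-3p in ovary was 21.25 nt. Counted over every 5′ start, the 23-to-21 ratio was 0.813 in ovary and 0.469 in testis (1.73-fold). This alternative was added after the data were seen. On this count the end at position 21 led in ovary too. An early-start form ending at position 23 would be too long for the lists, so this count favours position 21. Without a minimum level 22.4% of family arms were at least 2-fold and 10.6% at least 4-fold higher in ovary. With a pseudocount of 10 RPM 10.3% were at least 4-fold higher in ovary and 2.82% were counted as at least 4-fold above brain and liver in each gonad, and miR-202-3p was in neither group. Under the scalings named, 19 to 27 of 39 arms were higher in ovary, against 30 in RPM. For the summed arm, the lower bounds of miR-202-5p fell to 28.4-fold (ovary over brain), 37.8-fold (ovary over liver), 15.6-fold (testis over brain) and 20.8-fold (testis over liver), and those of miR-202-3p to 6.10-fold, 8.12-fold, 1.34-fold and 1.78-fold in the same order. As shares of miRNA RPM the bounds were taken for the top form only and not for the summed arm. In the same order they were 937-fold, 100-fold, 1010.3-fold and 108-fold for miR-202-5p, and 180.1-fold, 19.2-fold, 69.3-fold and 7.40-fold for miR-202-3p. Excluding mismatches dropped only the G22A form of miR-202-5p, 0.471% of that arm in ovary, and left each ratio within its counting interval. No member lay under the common minimum, so keeping only sequences at or above it could change no ratio. The listing minimum, 112 to 256 reads, limits the rarer forms, above all those of miR-202-3p in testis.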
